A study of Mus musculus with 6 samples.

Results

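The genes described here are 38 genes of oxidant defence: the transcription factor NRF2 (gene Nfe2l2), its regulators and targets, and the enzymes of the glutathione, thioredoxin, peroxiredoxin and superoxide systems. They were chosen by name and role, by no threshold on measured values but with earlier results of these data known, and all 38 were found among the 18046 genes listed for each library. The libraries came from naive CD4+ T cells of C57BL/6 mouse spleen, with an age of 3 weeks in the labels. Anti-CD3 and anti-CD28 stimulation lasted 3 days, under T helper 1 (Th1) polarising conditions. One group received LPC at 20 µM (n = 3) and the other a vehicle (n = 3). Both groups therefore share strain, tissue, activation and Th1 conditions and differ in the agent. The labels neither spell out LPC nor name the vehicle, and they leave unstated whether replicates are separate mice or cultures. P-values here thus measure the spread between these libraries alone, which may be technical. The question was how these genes stood in Th1 cultures that had received LPC, against vehicle cultures.

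NRF2 is a transcription factor that KEAP1 holds in the cytoplasm and marks for degradation. Oxidants and electrophiles disable KEAP1, and NRF2 then pairs with small MAF proteins at antioxidant response elements to raise genes such as Nqo1, Hmox1, Gclm and Srxn1, while the repressor BACH1 occupies the same kind of element. Activated T cells make reactive oxygen as they grow, and they use the glutathione and thioredoxin systems to contain it and to keep thiols reduced for DNA synthesis.

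Across the list, LPC cultures differed little from vehicle cultures, and changes were of a size like those of all tested genes. Of 36 genes with enough signal to be tested, 2 rose, Gsto1 and Hmox1, none fell, and 34 did not pass. That is 5.56% of the tested genes in the list, against 13.7% of all 10138 genes tested. Among all genes, 5.82% rose and 7.91% fell. A gene passed at an adjusted p under 0.05 in limma-trend, a linear model fitted across all tested genes on log2(FPKM + 1), where FPKM counts fragments per kilobase of exon model and per 1000000 mapped reads. Log2 changes are LPC minus vehicle on that scale, where low genes appear to change less than they do. At an unadjusted p under 0.05 stood 12 of the 36 genes (33.3%), 9 higher and 3 lower, against 30.1% of all genes. The count of called genes moved with single libraries, in the list (2 with all 6 libraries) and among all 10138 genes (1392). Leaving out LPC replicate 1 gave 1 in the list and 702 in all. For LPC replicate 2 these counts were 6 and 2026, and for LPC replicate 3 they were 3 and 1148. Dropping vehicle replicate 1 left 0 and 513, with 8 of the list at an unadjusted p under 0.05. For vehicle replicate 2 the counts were 1 and 566, and for vehicle replicate 3 they were 2 and 951. The median log2 change was 0.08 in the list and -0.04 over all tested genes. The median of absolute log2 changes was 0.13 in the list and 0.15 over all tested genes. No gene of the list changed over 2-fold, the size rule given in the labels. Over all 10138 genes, 20 (0.197%) did so at an adjusted p under 0.05. In the list, 31 of the 36 had a 95% interval that lay wholly within 1.5-fold on the log2(FPKM + 1) scale. The exceptions were Prdx1, Prdx4, Mgst3, Gpx1 and Glrx5. With a pseudocount of 0.1, which compresses low values less, the count was 26, and Bach1, Srxn1, Gpx7, Glrx and Gsto1 were further exceptions.

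**Figure D1:**
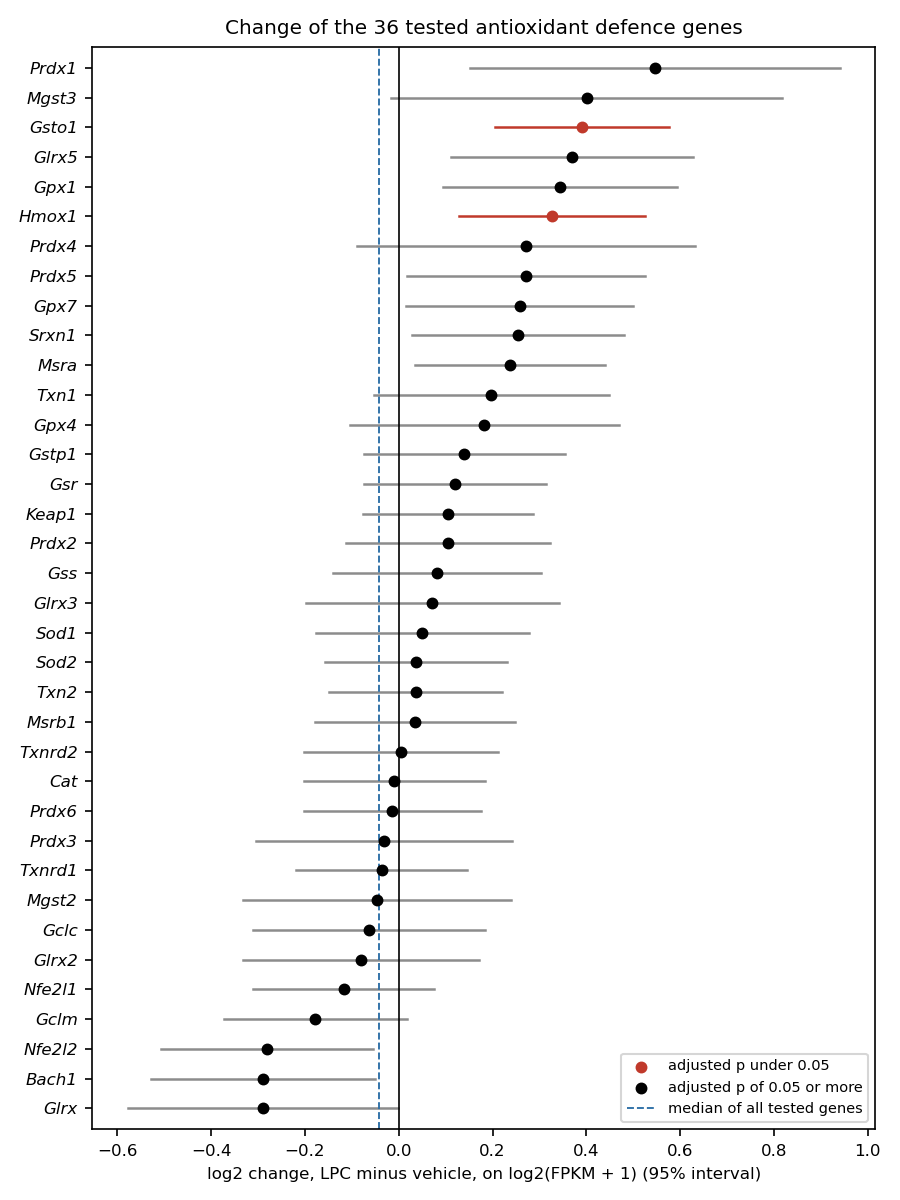
Log2 change (LPC minus vehicle on log2(FPKM + 1); points) with 95% intervals (lines) of the 36 tested antioxidant defence genes, sorted by size; the dashed line marks the median of all tested genes. The changes run from -0.29 for Glrx to 0.55 for Prdx1, and the 2 coloured genes, Gsto1 and Hmox1, passed the test.

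Library 3 of the LPC group stood apart from the other libraries, and this touches many values below. Its FPKM sum was 641026, against 562046 to 583242 in the other LPC libraries and 556561 to 588274 in the vehicle libraries. In that library the top decile of genes by transcript length deviated from their gene means by a median of -0.24 (log2), and the bottom decile by 0.09. Vehicle replicate 2 had a trend in the opposite direction, at 0.13 and -0.06. The genes of the list have short transcripts, with a median of 1256.5 bases against 2082.5 for all tested genes. LPC replicate 3 held the highest of the 6 values for 19 of the 36 genes, and for 17.7% of all tested genes. The median deviation of the 36 genes from their own mean was 0.147 on the log2 scale in LPC replicate 3, against -0.016 and -0.003 in the other LPC libraries and -0.092 to 0.004 in the vehicle libraries. Without LPC replicate 3 the median log2 change was 0.02 in the list and -0.02 over all tested genes. The files hold no read counts. Low values fell nearest to whole reads at an estimated 19000000 to 19500000 reads per library. The T cell markers Cd3e, Cd3d, Cd3g, Cd4, Cd28 and Lck summed to 950 to 1023 FPKM with LPC and 984 to 1016 FPKM with vehicle. Among them Cd4 was lower in every LPC library, at 144 to 177 FPKM with LPC and 185 to 205 FPKM with vehicle. All listed markers of B cells (5), myeloid cells (7), erythroid cells (4) and NK cells (3) stayed under 1 FPKM in every library. Their summed levels in the LPC and vehicle libraries were 0.52 to 0.89 and 1.01 to 1.05 FPKM for B cells, 0.33 to 0.49 and 0.05 to 0.19 for myeloid cells, 0.29 to 0.62 and 0.15 to 0.23 for erythroid cells, and 0 to 0.02 in both groups for NK cells, where Ncr1 and Klra8 were listed at 0 throughout. Zbtb46, a dendritic cell gene that T cells can express, stood at 1.17 to 1.5 FPKM with LPC and 2.72 to 2.87 FPKM with vehicle, and the other 3 dendritic cell markers were below 0.1 FPKM. Cd8a was below 0.4 FPKM in every library and Cd8b1 at 10.6 to 12.6 FPKM with LPC and 13.3 to 14.2 FPKM with vehicle; of the 4 stromal markers Pecam1 alone reached 1 FPKM, at 5.54 to 6.74 FPKM with LPC and 4.79 to 5.72 FPKM with vehicle. The part of these markers in the results was not tested. Fewer cells of a type and less RNA per cell cannot be told apart in such bulk samples.

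The element that NRF2 binds has the core TGACNNNGC. This core was searched on both strands of the RefSeq promoters of GRCm38.p6, each of which runs from 250 bases before to 50 after a start site. Promoters were listed for 33 of the 38 genes, and 6 of the 33 (18.2%) held the core, against 17.0% of tested genes with a listed promoter and 14.0% of all genes in the table. Within these windows the share in the list is thus close to that of other genes. Hmox1, Gclc, Gsr, Prdx6 and Msra had no listed promoter, and bases further upstream were not searched. The sites are shown because they mark which genes of the list carry the letters of this core near a start site. Other forms of the element were not searched for, so a gene without a match may still carry one. Capitals mark the core, and each site is written on the strand where it reads 5′ to 3′ with 10 flanking bases on both sides. A match describes letters and is not a measured binding site.
Prdx1, chr4:116685456-116685484, minus strand: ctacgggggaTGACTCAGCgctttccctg
Srxn1, chr2:152105542-152105570, minus strand: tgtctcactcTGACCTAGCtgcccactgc
Gclm, chr3:122245413-122245441, minus strand: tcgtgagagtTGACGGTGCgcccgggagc
Nfe2l2, chr2:75704885-75704913, minus strand: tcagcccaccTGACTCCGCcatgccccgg
Txnrd1, chr10:82859104-82859132, minus strand: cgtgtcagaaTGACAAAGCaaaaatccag
Sod1, chr16:90220696-90220724, minus strand: ggcctgagtcTGACCACGCccaccttggc
Counted from the start site on the gene's own strand, the most upstream base of the core lay at -133 in Prdx1, 29 in Srxn1, -134 in Gclm, -240 in Nfe2l2, -92 in Txnrd1 and -56 in Sod1. The log2 changes of these 6 genes ran in both directions: 0.55 for Prdx1, 0.25 for Srxn1, 0.05 for Sod1, -0.04 for Txnrd1, -0.18 for Gclm and -0.28 for Nfe2l2. None of the 6 passed the test, with adjusted p-values from limma of 0.0628, 0.122, 0.788, 0.811, 0.207 and 0.0898 in that order.

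The 250 bases before the start site are given for the gene with the largest log2 change of the list, Prdx1, and for Gsto1, the called gene with a listed promoter. The Prdx1 stretch holds the core on the minus strand, so capitals show its reverse complement, and the Gsto1 stretch holds no match to these letters.
Prdx1, chr4:116685349-116685598, plus strand: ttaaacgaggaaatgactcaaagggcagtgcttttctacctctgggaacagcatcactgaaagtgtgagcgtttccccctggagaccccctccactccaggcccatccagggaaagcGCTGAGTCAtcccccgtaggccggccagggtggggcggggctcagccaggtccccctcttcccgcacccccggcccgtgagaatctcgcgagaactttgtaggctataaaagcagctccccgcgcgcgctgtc
Gsto1, chr19:47854723-47854972, plus strand: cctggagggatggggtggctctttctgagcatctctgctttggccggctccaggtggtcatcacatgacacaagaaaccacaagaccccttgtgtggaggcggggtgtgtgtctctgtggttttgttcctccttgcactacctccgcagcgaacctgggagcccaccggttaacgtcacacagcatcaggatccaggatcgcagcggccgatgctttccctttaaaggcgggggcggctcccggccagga

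The regulators were all expressed, and none of the 4 passed the test. Nfe2l2, which encodes NRF2, was listed at 32.5, 35.1 and 27.7 FPKM in LPC replicates 1 to 3, against 38.1, 42.8 and 35.4 FPKM in vehicle replicates 1 to 3. Every LPC library was lower than every vehicle library, by a narrow gap between LPC replicate 2 and vehicle replicate 3. The log2 change was -0.28 (95% interval -0.51 to -0.06, limma adjusted p = 0.0898). With 1 library left out it lay between -0.35 without LPC replicate 2, where it passed (adjusted p = 0.0433), and -0.19 without LPC replicate 3 (0.217). Bach1, the repressor of NRF2 target genes, was listed at 1.34, 1.22 and 0.81 FPKM with LPC, against 1.58, 1.49 and 1.67 FPKM with vehicle. Here too the groups did not overlap, and the lowest value was that of LPC replicate 3; the log2 change was -0.29 (limma adjusted p = 0.0999), and -0.18 without that library. With a pseudocount of 0.1 it was -0.48 (adjusted p = 0.106), and the ratio of mean FPKM was 0.711. Keap1, the sensor that holds NRF2, had 28.3, 27.2 and 27.5 FPKM with LPC, against 26.7, 24.7 and 25.6 FPKM with vehicle. The LPC values were all above the vehicle values, yet by little, with a log2 change of 0.11 (95% interval -0.08 to 0.29, limma adjusted p = 0.421). Nfe2l1, the related factor NRF1 that controls proteasome genes, was the most abundant of the 4 per unit length, at 100, 107 and 91.3 FPKM with LPC and 111, 109 and 103 FPKM with vehicle. Its groups overlapped (log2 change -0.12, limma adjusted p = 0.398).

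**Figure D2:**
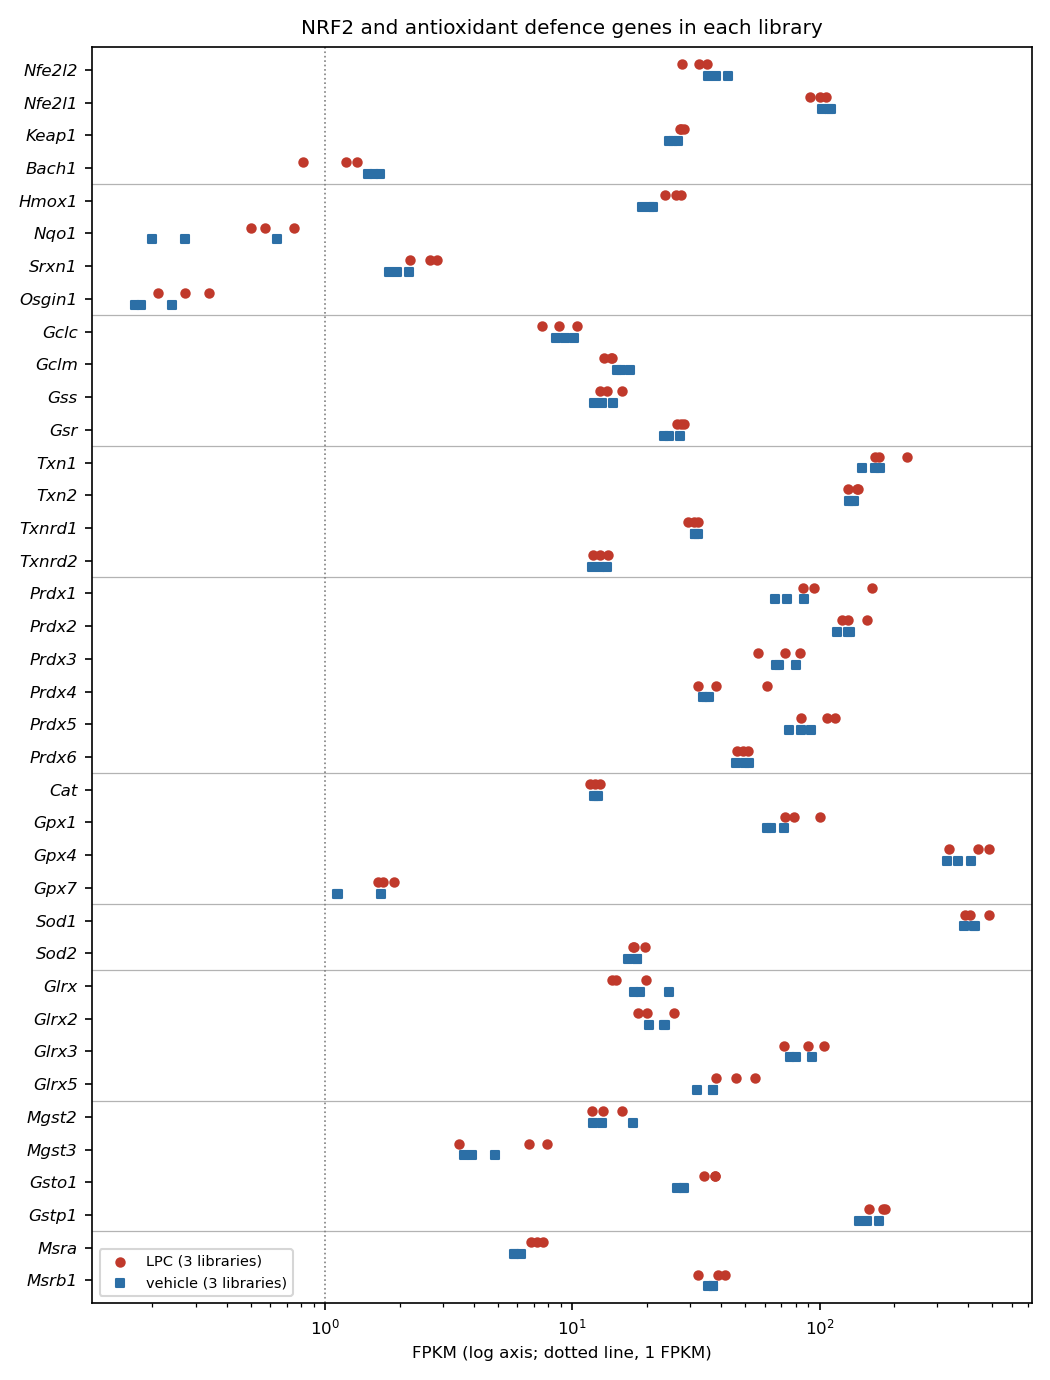
FPKM (log axis) of the 38 antioxidant defence genes in each library; circles are the 3 LPC libraries and squares, just below in each row, the 3 vehicle libraries, with grey lines between roles. For 26 of the 36 tested genes the groups overlap; Hmox1, Gsto1 and Msra are among those that do not.

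Of the 4 classical NRF2 targets, Hmox1 rose, Srxn1 did not pass, and Nqo1 and Osgin1 were too low to be tested. Hmox1 encodes heme oxygenase, which breaks heme into biliverdin, iron and carbon monoxide, and lies on chromosome 8 of GRCm38.p6 at 75093618 to 75100593. It was listed at 26.2, 27.4 and 23.6 FPKM in LPC replicates 1 to 3, against 21.1, 20.7 and 19.1 FPKM in vehicle replicates 1 to 3. All LPC libraries lay above all vehicle libraries, with means of 25.8 ± 1.93 and 20.3 ± 1.07 FPKM (SD, n = 3 each). The log2 change was 0.33 (SE 0.09, limma adjusted p = 0.0331), a ratio of means of 1.27. It was 0.38 (adjusted p = 0.0136) without LPC replicate 3. It did not pass without LPC replicate 1 (adjusted p = 0.0915), LPC replicate 2 (0.0555) or vehicle replicate 1 (0.0905), 2 (0.0991) or 3 (0.117), nor on the scale of TPM (FPKM rescaled to a sum of 1000000 in each library; 0.17) or with no filter on low values (0.0723). Srxn1, which encodes sulfiredoxin, the repair enzyme of over-oxidised peroxiredoxins, was listed at 2.20, 2.65 and 2.83 FPKM with LPC, against 1.95, 2.18 and 1.81 FPKM with vehicle. The groups just failed to overlap, and the log2 change of 0.25 (95% interval 0.03 to 0.48) did not pass (limma adjusted p = 0.122).

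Nqo1, a quinone reductase that is the usual readout of NRF2 activity, was listed at 0.57, 0.50 and 0.75 FPKM with LPC, against 0.27, 0.20 and 0.64 FPKM with vehicle. These values correspond to an estimated 15 to 22 reads per LPC library and 6 to 19 reads per vehicle library, and the groups overlapped through vehicle replicate 3. Osgin1, an oxidative stress-induced growth inhibitor, was listed at 0.34, 0.21 and 0.27 FPKM with LPC, against 0.17, 0.24 and 0.18 FPKM with vehicle, or an estimated 5 to 9 and 4 to 6 reads. Both genes stayed under 1 FPKM in every library. In the fit with no filter on low values their log2 changes were 0.24 (95% interval -0.05 to 0.53) and 0.09 (-0.01 to 0.19). Their limma adjusted p-values were 0.314 and 0.304, so no difference was detected. The log2(FPKM + 1) scale shrinks changes at such levels. The ratios of mean FPKM, LPC over vehicle, were 1.64 for Nqo1 and 1.39 for Osgin1.

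**Figure D3:**
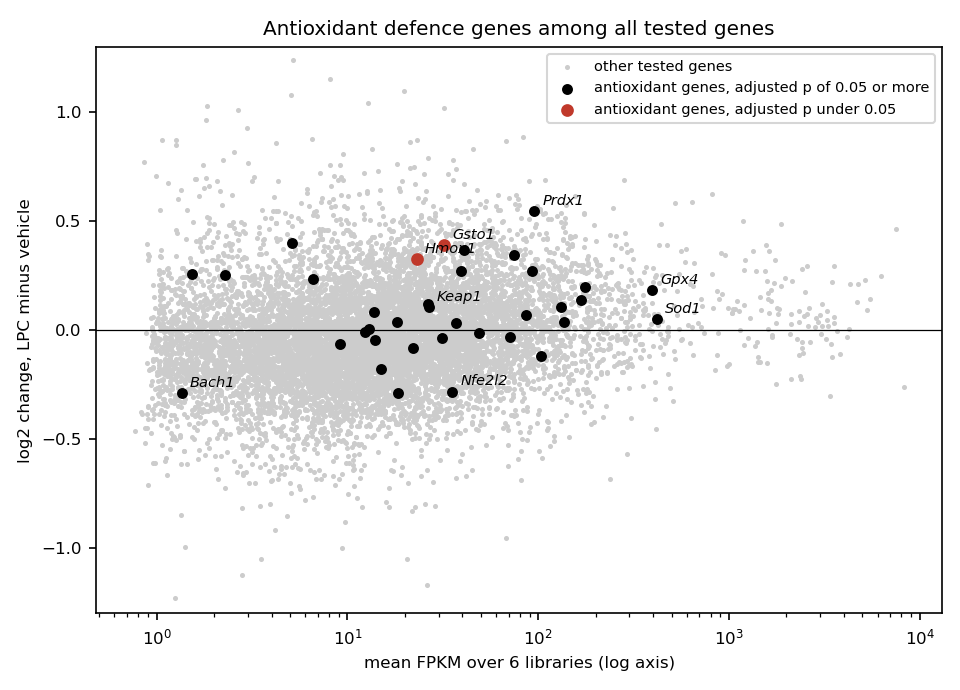
Log2 change (LPC minus vehicle) against mean FPKM over the 6 libraries (log axis) for the tested genes; grey points are the other tested genes within the axis, black and coloured points the 36 antioxidant defence genes. The antioxidant genes lie inside the spread of other genes of like abundance, with Prdx1 at 0.55 the highest.

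Genes of glutathione synthesis and reduction stood at like levels in both groups. Gclc and Gclm encode the catalytic and modifier subunits of glutamate-cysteine ligase, the rate-limiting enzyme of glutathione synthesis. Gclc averaged 8.95 ± 1.42 FPKM with LPC and 9.35 ± 0.816 FPKM with vehicle (SD, n = 3 each; log2 change -0.06, 95% interval -0.31 to 0.18). Gclm was listed at 14.4, 14.3 and 13.4 FPKM with LPC, against 17.1, 15.8 and 15.2 FPKM with vehicle. Its LPC libraries were all below its vehicle libraries, but the log2 change of -0.18 did not pass (limma adjusted p = 0.207). Glutathione synthetase (Gss) averaged 14.2 ± 1.51 FPKM with LPC and 13.3 ± 1.17 FPKM with vehicle, and glutathione reductase (Gsr), which regenerates the reduced form, 27.4 ± 0.996 and 25.2 ± 1.99 FPKM. The log2 changes of these 4 genes lay between -0.18 and 0.12, with adjusted p-values of 0.207 to 0.749.

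The thioredoxin system likewise gave no call. Txn1, the cytosolic thioredoxin that donates electrons to ribonucleotide reductase and peroxiredoxins, was listed at 168, 174 and 226 FPKM with LPC, against 168, 149 and 175 FPKM with vehicle. LPC replicate 3 was the highest library, and the other LPC values lay within the vehicle range. Txn1 had a log2 change of 0.20 (limma adjusted p = 0.272), and of 0.06 without LPC replicate 3. Its cytosolic reductase Txnrd1, a selenoenzyme and a known NRF2 target in mouse, averaged 30.8 ± 1.51 FPKM with LPC and 31.6 ± 0.555 FPKM with vehicle (log2 change -0.04, 95% interval -0.22 to 0.15). The mitochondrial thioredoxin Txn2 averaged 139 ± 6.86 and 135 ± 3.48 FPKM, and its reductase Txnrd2 13.0 ± 0.908 and 12.9 ± 0.901 FPKM. Adjusted p-values of the 4 genes were 0.272 to 0.981.

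Among the 6 peroxiredoxins, thiol peroxidases that reduce hydrogen peroxide, none passed the test. Prdx1, the abundant cytosolic member, was listed at 86.1, 95.2 and 163 FPKM in LPC replicates 1 to 3, against 74.0, 66.2 and 86.8 FPKM in vehicle replicates 1 to 3. LPC replicate 3 was by far the highest library, and LPC replicate 1 lay below vehicle replicate 3. The log2 change of 0.55 (SE 0.18, 95% interval 0.15 to 0.94, limma adjusted p = 0.0628) became 0.27 without LPC replicate 3 (adjusted p = 0.123). It passed without vehicle replicate 3 (0.0322), on the TPM scale (0.0214) and after removal of each library's trend with GC share and transcript length (0.0461). Prdx4, the peroxiredoxin of the endoplasmic reticulum, had a like profile at 32.2, 38.1 and 61.3 FPKM with LPC, against 34.8, 33.9 and 35.8 FPKM with vehicle. Its log2 change of 0.27 (limma adjusted p = 0.294) was 0.01 without LPC replicate 3. Prdx5, found in mitochondria and peroxisomes, was listed at 107, 83.9 and 115 FPKM with LPC, against 84.2, 75.3 and 92.5 FPKM with vehicle. It did not pass (log2 change 0.27, limma adjusted p = 0.143). It passed without LPC replicate 2 (0.41, adjusted p = 0.023), and was 0.18 without LPC replicate 3 (0.323) and 0.16 with GC and length trends taken out (0.194). Prdx5 shares 19.1% of its exon bases with Trmt112 on the other strand, and no source used here gives the strand of the reads. The cytosolic Prdx2 averaged 136 ± 16.4 FPKM with LPC and 126 ± 8.19 FPKM with vehicle, the mitochondrial Prdx3 70.8 ± 13.7 and 71.7 ± 7.22 FPKM, and Prdx6, which has a single active cysteine, 48.8 ± 2.41 and 49.3 ± 3.08 FPKM. Summed over the 6 genes the level was 462, 460 and 629 FPKM with LPC, against 439, 407 and 480 FPKM with vehicle; the high sum was that of LPC replicate 3.

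**Figure D4:**
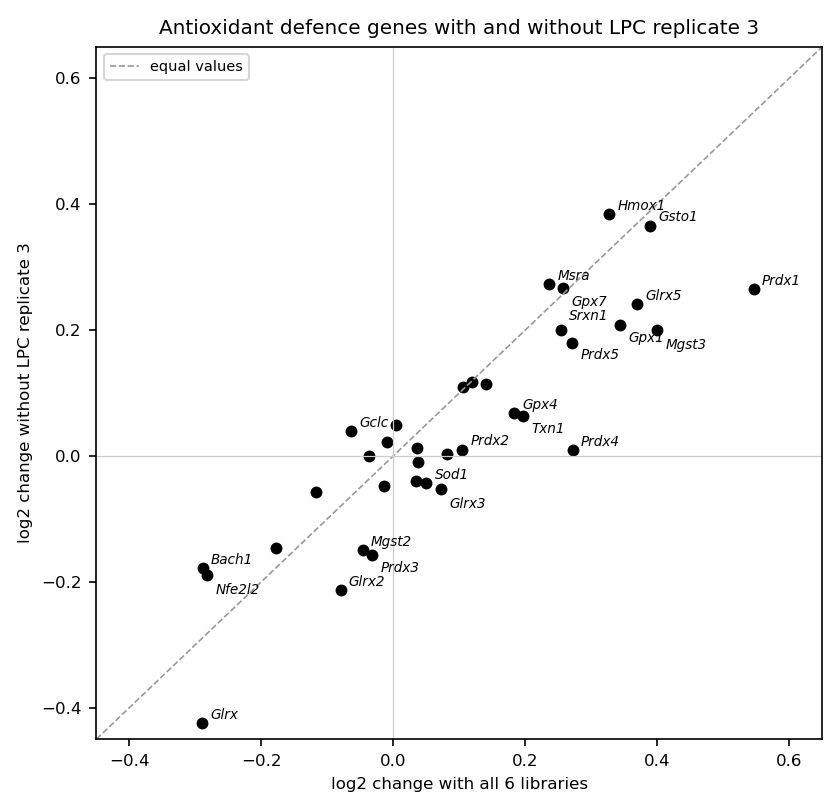
Log2 change (LPC minus vehicle) of the 36 tested genes with all 6 libraries (horizontal axis) and without LPC replicate 3 (vertical axis); the dashed line marks equal values. Prdx1 has 0.55 with and 0.27 without that library and Prdx4 0.27 and 0.01, while Hmox1 (0.33 and 0.38) and Gsto1 (0.39 and 0.37) stay near the line.

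Catalase and the glutathione peroxidases gave no call either. Gpx1, the cytosolic selenoenzyme that reduces hydrogen peroxide with glutathione, was listed at 78.8, 72.5 and 101 FPKM with LPC, against 63.4, 61.4 and 71.6 FPKM with vehicle. Its groups did not overlap, though LPC replicate 2 lay close to vehicle replicate 3. The log2 change was 0.34 (95% interval 0.09 to 0.59, limma adjusted p = 0.0644), and 0.21 without LPC replicate 3. It was 0.44 without LPC replicate 2, with an adjusted p of 0.0271, and 0.23 with GC and length trends taken out. Gpx4, which reduces lipid peroxides in membranes and so guards against ferroptosis, was one of the most abundant genes of the list, at 439, 334 and 486 FPKM with LPC and 364, 326 and 409 FPKM with vehicle. Its groups overlapped (log2 change 0.18, 95% interval -0.10 to 0.47, limma adjusted p = 0.376). The change was 0.34 (adjusted p = 0.0586) without LPC replicate 2, 0.07 without LPC replicate 3 and 0.07 with GC and length trends taken out. Gpx7, a peroxidase of the endoplasmic reticulum, was low at 1.75 ± 0.134 FPKM with LPC and 1.31 ± 0.326 FPKM with vehicle (log2 change 0.26, limma adjusted p = 0.143). Cat, the peroxisomal catalase, averaged 12.3 ± 0.616 FPKM with LPC and 12.4 ± 0.235 FPKM with vehicle (log2 change -0.01, 95% interval -0.20 to 0.18).

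The superoxide dismutases, which turn superoxide into hydrogen peroxide, differed by less than the spread between libraries. Sod1, the copper and zinc enzyme of the cytosol, had the highest mean of the list, at 407, 389 and 483 FPKM with LPC and 425, 384 and 423 FPKM with vehicle. Its range overlapped that of Gpx4, the next gene in order, in both groups. Between groups Sod1 differed by a log2 change of 0.05 (95% interval -0.18 to 0.28, limma adjusted p = 0.788). Sod2, the mitochondrial manganese enzyme, averaged 18.3 ± 1.11 FPKM with LPC and 17.8 ± 0.84 FPKM with vehicle (log2 change 0.04, limma adjusted p = 0.818).

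The 4 glutaredoxins pointed in both directions without a call. Glrx5, a mitochondrial glutaredoxin of iron-sulfur cluster assembly, was listed at 45.9, 38.1 and 54.9 FPKM with LPC, against 36.9, 31.8 and 37.1 FPKM with vehicle. The groups did not overlap, and the log2 change of 0.37 (95% interval 0.11 to 0.63) lay just short of the threshold (limma adjusted p = 0.0558). It was 0.24 without LPC replicate 3 and passed without LPC replicate 2 (0.50, adjusted p = 0.0133). Glrx, the cytosolic glutaredoxin that removes glutathione from proteins, had 14.5, 15.0 and 19.9 FPKM with LPC, against 17.7, 18.8 and 24.5 FPKM with vehicle. The groups overlapped through LPC replicate 3. Glrx had a log2 change of -0.29 (limma adjusted p = 0.165), of -0.43 (adjusted p = 0.0321) without that library, and of -0.15 (0.492) without vehicle replicate 3. Glrx2, in mitochondria, averaged 21.5 ± 3.84 FPKM with LPC and 22.6 ± 1.79 FPKM with vehicle. Glrx3, a monothiol glutaredoxin of iron handling, averaged 88.5 ± 16.3 FPKM with LPC and 83.5 ± 9.08 FPKM with vehicle.

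Among the glutathione transferases Gsto1 rose, and it had the smallest adjusted p of the list. Gsto1, an omega-class enzyme that reduces dehydroascorbate, lies on chromosome 19 of GRCm38.p6 at 47854973 to 47864790. It was listed at 34.2, 37.8 and 37.8 FPKM in LPC replicates 1 to 3, against 28.1, 28.4 and 26.6 FPKM in vehicle replicates 1 to 3. The groups stood well apart, with means of 36.6 ± 2.05 and 27.7 ± 0.938 FPKM (SD, n = 3 each). The log2 change was 0.39 (SE 0.09, 95% interval 0.20 to 0.58, limma adjusted p = 0.0116), a ratio of means of 1.32. The call was lost when vehicle replicate 1 was left out (adjusted p = 0.0542), on the TPM scale (0.0673) or after removal of GC and length trends (0.28, adjusted p = 0.0512). Mgst3, a microsomal glutathione transferase with peroxidase activity, was listed at 6.71, 3.49 and 7.93 FPKM with LPC, against 3.65, 3.94 and 4.85 FPKM with vehicle. LPC replicate 2 was the lowest of all 6 libraries while the other LPC values were the highest. Its log2 change of 0.40 did not pass (limma adjusted p = 0.182) but was 0.70 (adjusted p = 0.00656) without LPC replicate 2. It was 0.20 (adjusted p = 0.495) without LPC replicate 3. Mgst2 averaged 13.7 ± 1.99 FPKM with LPC and 14.3 ± 2.88 FPKM with vehicle. Gstp1, the pi-class enzyme, averaged 175 ± 13.9 and 158 ± 15.2 FPKM (log2 change 0.14, limma adjusted p = 0.362). Its transcript matches that of Gstp2 at 98.2% identity over 707 bases, so the division of reads between both is uncertain.

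Of the methionine sulfoxide reductases, which repair oxidised methionine, Msra was listed at 7.63, 7.17 and 6.78 FPKM with LPC, against 5.86, 5.81 and 6.18 FPKM with vehicle. The groups did not overlap, and the log2 change of 0.24 did not pass (limma adjusted p = 0.111). It passed with quantile normalization (0.31, adjusted p = 0.0289) and with median centring (0.28, adjusted p = 0.0442). The selenoprotein gene Msrb1 averaged 37.5 ± 4.74 FPKM with LPC and 36.4 ± 1.01 FPKM with vehicle (log2 change 0.03).

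Over the list, the 3 LPC values lay wholly above or below the 3 vehicle values for 10 of the 36 genes (27.8%), against 34.5% of all tested genes. LPC was higher for 7 of the 36, Hmox1, Gsto1, Keap1, Srxn1, Gpx1, Glrx5 and Msra, against 13.7% of all tested genes. LPC was lower for 3 of the 36, Nfe2l2, Bach1 and Gclm, against 20.7% of all tested genes. The 3 lower genes were NRF2 itself, its repressor and its target Gclm, while the targets Hmox1 and Srxn1 stood in the higher set. Of these genes only Hmox1 passed the test, and for Txnrd1, another target, the groups overlapped. Whether the genes moved together was not tested. The log2 change was above 0 for 24 genes and below 0 for 12. The summed level of all 38 genes was 2464, 2319 and 2878 FPKM in LPC replicates 1 to 3, against 2339, 2189 and 2459 FPKM in vehicle replicates 1 to 3, or 0.413% to 0.449% and 0.393% to 0.418% of each library's FPKM sum. In these sums the groups overlapped. By mean level 7 genes lay above 100 FPKM, 23 between 10 and 100, 6 between 1 and 10, and 2 below 1.

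Further genes of the pathway were taken from 6 lists that hold 86 distinct genes, of which 73 were tested; 4 rose and 3 fell, 9.6% in all, beside 13.7% of all genes. None of 7 tested genes linked to NRF2 or to the KEAP1 ubiquitin ligase passed, among them Mafg, Cul3 and Sqstm1. Of 19 further NRF2 targets of NADPH supply, iron, heme and transport, 1 rose. This was Pgd, which encodes the NADPH-producing 6-phosphogluconate dehydrogenase, at 55.4, 48.5 and 56.8 FPKM with LPC, against 37.3, 35.4 and 35.9 FPKM with vehicle. Its groups stood far apart (log2 change 0.55, SE 0.09, limma adjusted p = 0.00229), and it passed in each of the 6 fits that left out 1 library (0.51 to 0.62). The others, among them G6pdx, Slc7a11, Ftl1 and Fth1, did not pass. Of 16 further glutathione genes only Gstt1, a theta-class transferase, rose, at 4.42, 3.47 and 4.54 FPKM with LPC, against 2.67, 2.59 and 2.82 FPKM with vehicle (log2 change 0.47, limma adjusted p = 0.0127). It did not pass without LPC replicate 1 (adjusted p = 0.0591) or vehicle replicate 1 (0.0552).

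Of 15 further thioredoxin and thiol genes 2 rose and 2 fell. Ccs, the copper chaperone that loads Sod1, rose to 24.0 ± 3.51 FPKM with LPC, against 17.2 ± 0.859 FPKM with vehicle (SD, n = 3 each). Its log2 change was 0.45 (limma adjusted p = 0.0171), and that of Nxn, which encodes nucleoredoxin, 0.33 (adjusted p = 0.0418). Txnip, which encodes the inhibitor of thioredoxin, fell to 51.6, 50.6 and 42.2 FPKM with LPC, against 67.6, 59.4 and 58.4 FPKM with vehicle. Its LPC libraries were all below its vehicle libraries (log2 change -0.36, limma adjusted p = 0.0331), and Txndc12, a thioredoxin-like gene of the endoplasmic reticulum, had a log2 change of -0.28 (adjusted p = 0.0407). Ccs did not pass without LPC replicate 1 (adjusted p = 0.08) or vehicle replicate 1 (0.0523) or 2 (0.0631). Nxn did not pass without any 1 of 5 libraries, LPC replicate 2 being the exception (0.0552 to 0.165). Txnip did not pass without LPC replicate 1 (0.0501) or 3 (0.0679) or vehicle replicate 1 (0.168) or 2 (0.0699). Txndc12 did not pass without LPC replicate 1 (0.106) or vehicle replicate 1 (0.14), 2 (0.198) or 3 (0.0861).

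Of 7 genes of selenoprotein synthesis, which serve Gpx1, Gpx4, Txnrd1, Txnrd2 and Msrb1, Scly, the selenocysteine lyase, fell to 44.4 ± 3.27 FPKM with LPC, against 55.0 ± 2.54 FPKM with vehicle (SD, n = 3 each; log2 change -0.30, limma adjusted p = 0.0378). It did not pass without LPC replicate 2 (adjusted p = 0.0522) or 3 (0.0659) or vehicle replicate 1 (0.178), 2 (0.121) or 3 (0.0684). None of 12 tested genes of the ATF4 stress response passed, among them Ddit3, Trib3 and Chac1, and their median log2 change was 0.09. With no filter on low values, Pgd (adjusted p = 0.0267) passed, and the other 6 of the 7 called genes did not (0.0585 to 0.0988). Other settings also ended calls: the TPM scale for Nxn (adjusted p = 0.163), Txndc12 (0.0568) and Scly (0.0513), median centring for Txnip (0.0567), Txndc12 (0.0687) and Scly (0.0698), and limma without a trend for Txndc12 (0.0526).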

How the data were processed

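RNA was measured in 6 libraries, 3 with LPC and 3 with vehicle. The authors deposited FPKM values per gene, rounded to 0.01; the labels' protocols name BGISEQ-500 sequencing, Bowtie2, RSEM and GRCm38. Read counts were not used here, and the depth is an estimate from the spacing of low FPKM values. For this report, log2(FPKM + 1) of the 10138 genes with 1 FPKM or more in 3 or more libraries was fitted with limma 3.58.1 (R 4.3.3; trended prior variance, group as the single term), with Benjamini-Hochberg adjustment over all of them and a threshold of 0.05. The fit was tested on simulated data. The genes and gene lists were chosen with earlier results of these data known. The labelled size rule of a 2-fold change with an adjusted p was replaced by the adjusted p alone.

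Library values were to be given for the regulators, the classical targets and the called genes; further genes near the threshold or with groups that did not overlap were given so after their values were seen. Of the 6 further lists the called genes are named, with a few others chosen for being familiar; 1 further list is not reported here. Alternatives covered the pseudocount (0.1), filters, scalings, a GC and length trend (natural splines), a replicate block, limma without trend and each library left out. Promoter sequences are from RefSeq GRCm38.p6, matched by gene ID. Gene coordinates, exon overlaps and transcripts are from the reference annotation. Near-identical copies were found with BLAST 2.17.0 (95% identity over 200 bases or more). Such pseudogene copies exist for Gpx4, Sod1, Prdx1, Prdx2, Txn1 and Glrx3, and shared exon bases on the other strand for Prdx2, Gss, Txnrd2, Keap1 and Gclm, so their FPKM are less certain. Tables were read with Python 3.11.15 and pandas 2.3.3.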

Additional observations from a re-analysis of the deposited data

How the results depend on the processing

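Whether the replicate numbers pair the libraries was not settled, and the main fit took them as unpaired. Deviations from group means correlated at 0.02, 0.56 and 0.41 for numbers 1, 2 and 3. Each LPC library correlated best with the vehicle library of its own number. Vehicle replicate 1, however, correlated best with LPC replicate 3 (0.06). With the replicate number as a block, calls rose both in the list and over all genes. Of the 36 tested genes of the list 10 were called, 8 higher and 2 lower, beside 2841 of all 10138 genes. Besides Gsto1 and Hmox1 these were Prdx1 (adjusted p = 0.00124), Glrx5 (0.00322), Gpx1 (0.00414), Prdx5 (0.0145), Mgst3 (0.0289) and Msra (0.0472), higher, and Glrx (0.00941) and Nfe2l2 (0.0103), lower. With the block and the GC and length trend removed, 8 of 36 were called, 6 higher and 2 lower, beside 2828 of 10009 genes in all. The main fit had called 2 of 36 in the list (5.56%), both higher, and 1392 of 10138 in all (13.7%). With the block alone, the share called in the list was instead like that over all genes. No filter gave 1 of 38 (464 of 16899 in all), and the TPM scale 1 of 36 (934 of 10138 in all). Leaving out 1 library gave 0 to 6 called in the list, 0 to 5 higher and 0 to 1 lower, with 513 to 2026 genes in all. The cause was not tested.

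Of 36 genes tested, 23 kept their direction under all alternatives run for them, and 13, with log2 changes of at most 0.08 in size, did not. With quantile normalization the values were 0.004 for Gclc, -0.025 for Txn2, 0.045 for Cat, -0.042 for Sod1 and 0.0017 for Mgst2. With GC and length trends removed, with or without the block, they were 0.0054 for Gclc, -0.030 for Txn2, 0.0029 for Txnrd1, -0.049 for Txnrd2, 0.0059 for Prdx3, -0.047 for Sod1 and -0.043 for Msrb1. On the TPM scale they were -0.016 for Txn2, -0.045 for Txnrd2, -0.0026 for Sod1, -0.013 for Sod2 and -0.017 for Msrb1. With median centring they were 0.011 for Txnrd1, 0.016 for Prdx3, 0.034 for Prdx6, 0.038 for Cat and 0.0013 for Mgst2. With 1 library left out the ranges were -0.17 to 0.039 for Gclc, -0.044 to 0.050 for Txnrd2, -0.16 to 0.12 for Prdx3, -0.062 to 0.025 for Prdx6, -0.044 to 0.023 for Cat, -0.043 to 0.11 for Sod1, -0.0098 to 0.063 for Sod2, -0.21 to 0.017 for Glrx2, -0.052 to 0.21 for Glrx3, -0.15 to 0.10 for Mgst2 and -0.040 to 0.14 for Msrb1. The median of the list was 0.02 to 0.12 over all alternatives. That of all tested genes moved too, from -0.093 on the TPM scale to 0.0055 with median centring. Groups of 3 libraries and FPKM without read counts limit the precision.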
